A study of Mus musculus with 5 samples.

Results

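The mitochondrial ribosomal proteins were measured in pharyngeal arch tissue of wild-type mice at embryonic day E10.5, which the labels say includes second heart field. Members were the probe sets annotated to exactly 1 gene whose symbol begins with Mrpl (large subunit) or Mrps (small subunit) followed by a number and at most 1 letter a, b or c, with Mrpl40 left out. The rule uses names and no measured value. It took 126 of 20380 single-gene probe sets and 73 of 12393 genes, 46 of them Mrpl and 27 Mrps. The series held 5 samples of 1 group, each from a separate tissue isolate, on a 129P2/OlaHsd background after 2 generations of backcross to C57BL/6. From each isolate 10 ng of total RNA was amplified, biotin-labelled and hybridised to an Affymetrix Mouse Genome 430A array. There was no second condition, so the design allowed each signal to be tested against background and each gene's spread to be tested against genes of like signal. Whether isolates stem from separate litters or embryos is not stated, so the spread between samples may in part be technical.

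Mitochondria carry their own ribosomes, which translate the few messenger RNAs of mitochondrial DNA into core subunits of the respiratory chain and ATP synthase. The ribosomal RNAs come from mitochondrial DNA, but every protein of the mitochondrial ribosome is encoded in the nucleus, made in the cytosol and imported. Part of these proteins have counterparts in bacterial ribosomes and the others are specific to mitochondria. Loss of single members in human disease or in mouse mutants impairs oxidative phosphorylation and often affects the heart, and complete loss is commonly lethal to the mouse embryo.

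The signals were scaled intensities, and the median over all probe sets was 28.1 to 32.2 on the 5 arrays. The background level of an array was the signal below which 95% of 236 probe sets lay that belong to gene families of odorant and taste receptors, gland secretions, hair and skin, germ cells, defensins, milk proteins and antigen receptors, and it was 15.6 to 23.4. A strict level, which also took in 28 probe sets of genes whose symbols begin with Csn or Ifna, casein kinases and interferon receptors among them, was 64.1 to 99.7. Replicates 1 and 2 were the closest pair of arrays, 0.24 log2 units apart in the median of 12802 probe sets, and replicates 1 and 4 were farthest apart with 0.38. Of the markers fixed for the labelled tissue, 2 of 6 genes of cardiac progenitors lay above the background level. These were Isl1 and Mef2c, while Tbx1, Fgf10, Nkx2-5 and Hand2 were not above it. Of markers of neural crest with arch mesenchyme 5 of 6 were above it, all but Dlx5. The counts were 4 of 5 for pharyngeal endoderm and 4 of 6 for cardiac muscle. Other cell types gave 5 of 5 for neurons, 3 of 5 for erythroid cells and 2 of 4 for liver with yolk sac endoderm. Among all genes 54.1% were above the level. The tissue was measured whole, so fewer cells of a type and less RNA per cell cannot be told apart, and the cells that gave a signal are not known.

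All member genes gave a signal above background. Of 73 members 73 (100%) were called, against 54.1% of all 12393 genes (limma's moderated test of log2 signal over the level of the array, one-sided, Benjamini-Hochberg adjusted p below 0.05 over all genes). The median member lay 3.72 log2 units above the level, against 0.87 for all genes, and the members ran from 0.67 (Mrpl14) to 6.76 (Mrpl11). The highest adjusted p of a member was 0.00822 (Mrpl14) and the next 0.000889 (Mrpl38). Above the strict level there were 54 of 73 members (74.0%), against 31.1% of all genes, 33 of 46 Mrpl genes and 21 of 27 Mrps genes. A gene was represented by its brightest probe set, and with each probe set tested by itself 108 of 126 were called, against 51.1% of all single-gene probe sets. At the strict level 72 of the 126 were, against 27.2%. In each sample the member signals covered a wide range, with medians of 209.6, 238, 215, 256 and 282 in replicates 1 to 5. Signals of different probe sets depend on how well each binds its transcript, so their order is no order of transcript amounts.

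**Figure D1:**
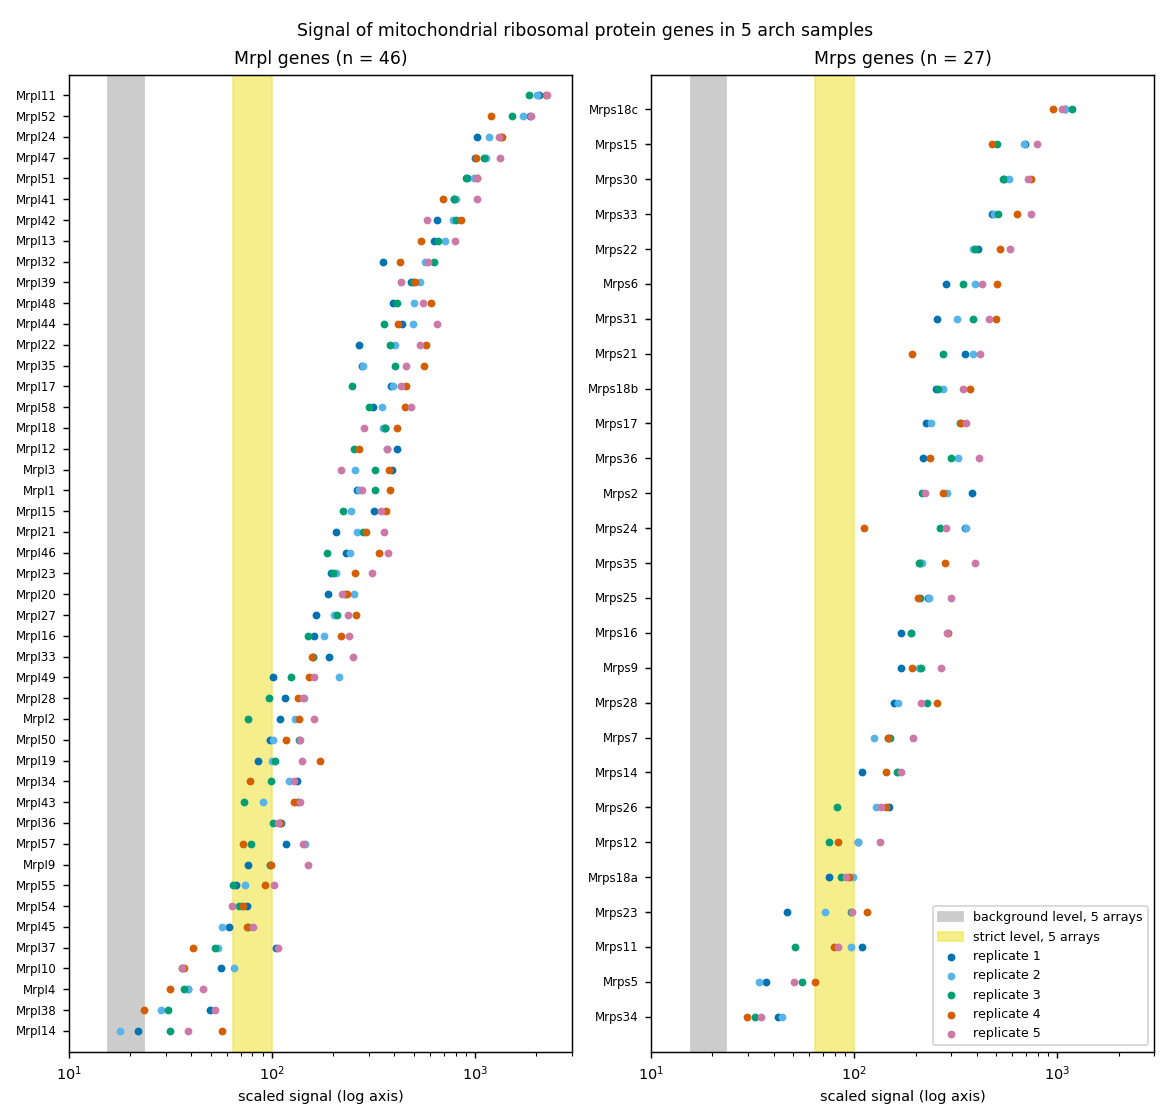
Each row is a member gene, Mrpl genes on the left and Mrps genes on the right, and each point is the scaled signal of its brightest probe set in 1 of 5 samples, on a log axis. The grey band spans the background levels of the 5 arrays (15.6 to 23.4) and the yellow band the strict levels (64.1 to 99.7); Mrpl14 has 2 points inside the grey band, Mrpl38 has 1 point at its right edge, and Mrps24 has 1 point far below its others.

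Members of the large subunit with a bacterial counterpart form its conserved core. All 28 that were measured were above background, 22 of them (78.6%) above the strict level, against 54.1% and 31.1% of all genes. Proteins of the stalk, which recruits translation factors to the ribosome, were measured by 1 to 4 probe sets. Mrpl11, at the base of the stalk, gave 2053, 2022, 1846, 2220.3 and 2256 in replicates 1 to 5, a spread of 0.12 log2 units (SD, n = 5). These values are of 1 probe set of the _x_at type, which may also bind other transcripts. The other called probe sets of Mrpl11 averaged 609 and 370, with SDs of 0.24 and 0.65, and were highest in replicates 4 and 1. Mrpl12, the stalk protein that also binds the mitochondrial RNA polymerase, gave 413, 367, 254, 267 and 369, and it was highest in replicate 1. Mrpl10, which anchors Mrpl12 to the ribosome, gave 56.3, 64.7, 35.9, 36.8 and 36.0, above the level by 1.21 ± 0.23 log2 units (SE) but below the strict level on every array. Its only probe set carried this value.

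Other proteins of the conserved core line the catalytic centre and the exit tunnel. Mrpl3, which reaches toward the peptidyl transferase centre and is mutated in a human mitochondrial cardiomyopathy, gave 391, 255, 321, 375 and 218. This probe set was highest in replicates 1 and 4 and lowest in replicate 5. The 2 other called probe sets of Mrpl3 gave 109, 133, 125, 144 and 153, and 56.7, 87.9, 110.0, 140.0 and 82.6, both lowest in replicate 1, so the gene has no settled order of samples. Mrpl24, an early-binding protein near the tunnel exit, averaged 1238 ± 142 (SD, n = 5), and Mrpl47, which stands at the tunnel exit, averaged 1114 ± 128. Mrpl13, a protein of the solvent side, gave 627, 709, 654, 543 and 791. For these 4 genes all 5 samples were above the strict level. Mrpl4, which lines the tunnel, was near background with 38.4, 38.3, 36.9, 31.3 and 45.7, and Mrpl14, which sits on the face toward the small subunit, had 21.9, 17.7, 31.4, 56.9 and 38.5 and was the member nearest to background (0.67 ± 0.24 log2 units, adjusted p = 0.00822, limma). Without replicate 4, its highest sample, Mrpl14 was not called (adjusted p = 0.0570).

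Large subunit proteins specific to mitochondria surround this core. All 20 measured were above background, with 12 (60%) above the strict level, against 54.1% and 31.1% of all genes. The class counts Mrps18a and Mrps30, which bear small subunit names but are built into the large subunit. Mrpl52 gave 1859, 1721, 1510.4, 1189 and 1888, and replicate 4 was its lowest sample. Mrpl51 gave 908, 991, 899, 1025 and 1018 and Mrpl41 gave 784, 804, 786, 695 and 1019. Mrpl42 gave 651, 781, 807, 851 and 582, with replicate 5 lowest. All 4 genes were above the strict level in every sample. Mrpl44, which has a fold related to ribonuclease III and is mutated in a human infantile cardiomyopathy, gave 433, 496, 357, 415 and 647, with replicate 5 above the other samples. Among members nearer to background, Mrpl38 averaged 36.8 ± 13.0, Mrpl37 71.6 ± 31.3 and Mrpl57 111 ± 34.5, and none of these passed the strict level. Mrpl45, which holds the large subunit to the inner membrane, averaged 70.0 ± 10.55, and Mrpl58, a peptidyl-tRNA hydrolase built into the large subunit, averaged 378 ± 82.0.

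The small subunit reads the messenger RNA. All 15 measured members with a bacterial counterpart and all 9 measured mitochondria-specific members were above background, against 54.1% of all genes. Above the strict level there were 12 (80%) and 7 (77.8%), against 31.1% of all genes. Mrps12, the counterpart of the bacterial S12 protein of the decoding centre, gave 104, 104, 74.7, 83.4 and 134, above background by 2.35 ± 0.19 log2 units, and it was not called at the strict level (adjusted p = 0.460). Mrps15 gave 689, 685, 506, 475 and 796, with replicates 3 and 4 below the other samples. Mrps16, mutated in a human deficiency of oxidative phosphorylation, gave 170.4, 189, 189, 288 and 287. Here replicates 4 and 5 lay apart above the other samples. Mrps22, a mitochondria-specific protein whose loss in humans causes cardiomyopathy and hypotonia, gave 406, 385, 393, 522 and 583, again with replicates 4 and 5 highest. Mrps34, mutated in human Leigh syndrome, gave 42.2, 44.2, 32.3, 29.7 and 34.5, 0.91 ± 0.23 log2 units above background (adjusted p = 0.000387, limma). Mrps36 carries a ribosomal name but is now known as a component of 2-oxoglutarate dehydrogenase. It averaged 297 ± 76.5 and was placed in no subunit class.

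The mouse has a family of 3 proteins related to bacterial S18, each with its own place in the ribosome. Mrps18c takes the place of S18 in the small subunit, Mrps18b has a separate site in the small subunit, and Mrps18a is part of the large subunit. Mrps18c gave 1084, 1094, 1177, 948 and 1056, Mrps18b gave 252, 274, 257, 369 and 344 and Mrps18a gave 75.4, 98.0, 85.7, 93.9 and 90.9. All 3 were above background in every sample, and Mrps18a alone of the 3 was not called at the strict level (adjusted p = 1, limma). Mrps18b was highest in replicates 4 and 5, while Mrps18c was lowest in replicate 4. Each gene had 1 probe set, and the levels of the 3 genes cannot be set against each other on this array.

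Of the 19 members that were not above the strict level, 12 rested on a single probe set. Besides the members already described they were Mrps5, Mrps11, Mrps23, Mrpl9, Mrpl34, Mrpl36, Mrpl43, Mrpl54 and Mrpl55. Mrps5 averaged 48.1 ± 12.6 and Mrps11 83.8 ± 21.6. Mrpl36, a small protein with a bacterial counterpart, gave 111, 108, 101, 109 and 107, the most even signal of the 73 members. A gene under the strict level may still be transcribed, since the genes added to its set include widely expressed ones.

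Probe sets of 1 gene did not always give the same call. Of 33 members with 2 or more probe sets, 16 (48.5%) had both called and uncalled ones, against 37.8% of all 4956 such genes. The shares have unlike bases. Each of the 33 members had a called probe set, while the 4956 include genes without one, which cannot have mixed calls. Mrpl42 had a called probe set at 651, 781, 807, 851 and 582 and one at 1.16, 14.6, 1.44, 0.96 and 9.06, which was not above background. Mrpl11 had 4 probe sets with means of 2079, 609, 370.0 and 21.3, and the last was not called. Mrpl35 had 394 and 7.70, and Mrpl17 had 383 and 9.74. For Mrpl35 and Mrpl17 the call rests on a probe set of the _a_at type, which recognises several transcripts of the gene, and the plain probe set was not above background. Mrpl41 had 818, 359 and 18.9, and Mrpl51 had 968, 56.6 and 21.2, in each case with 2 of 3 called. Mrpl15 had 7 probe sets, of which 4 were called. All 31 member probe sets of the _a_at type were called, against 55.7% of all such probe sets, and 60 of 77 plain ones (77.9%) were, against 47.5%.

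**Figure D2:**
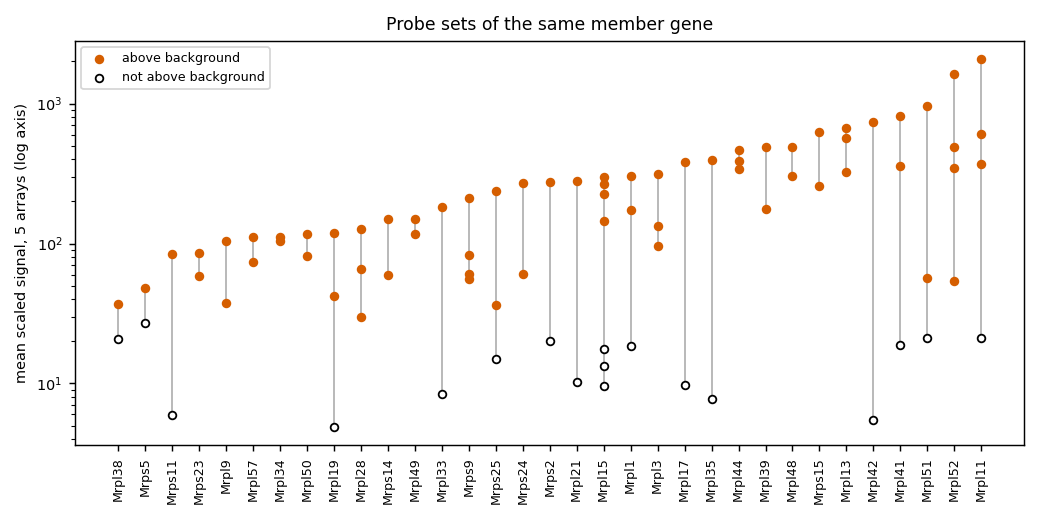
Points are the mean scaled signals over 5 arrays (log axis) of the probe sets of the 33 members that have 2 or more, joined by a line for each gene; filled points were above background and open points were not. Open points lie as low as 4.92 (Mrpl19) and 5.45 (Mrpl42), below filled points of the same genes at 119.8 and 734.

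Where a gene had several called probe sets, they did not always rank the samples alike. Among 24 members with 2 or more called probe sets, 7 had the same highest sample and 10 the same lowest sample in all of them, and 3 had both in common, namely Mrpl52, Mrpl9 and Mrps24. The 4 probe sets of Mrpl52 were each highest in replicate 5 and lowest in replicate 4. The second gave 480.4, 571, 418, 403 and 590.1 and the third 309, 420.1, 292, 262 and 439. Their order of samples matched that of the brightest probe set at these 2 ends. The probe sets of Mrpl44 had their highest signals in replicates 5, 3 and 2, so the high value of replicate 5 was not shared by its other probe sets.

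The members varied between samples about as much as other genes. Their median SD of log2 signal was 0.30, against 0.31 for all 7418 genes with a mean above background, and the highest sample was a median 1.60 times the lowest, against 1.70. A ratio above 2 was seen in 13 members (17.8%), against 29.9% of all genes. These comparisons are not matched for signal, and the median member was brighter than the median gene. Against limma's trend at like signal, the median variance ratio was 0.997 for members and 0.894 for all genes. None of the 73 members was called more variable than genes of like signal (F test of the variance against limma's robust trend, adjusted p below 0.05), against 6 of 7418 genes (0.0809%). At an unadjusted p below 0.05 there was 1 member, Mrps24, against 5.55% of all genes. With 5 arrays a moderate excess of spread could go unseen.

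The members with the largest spread fell into different patterns. Mrps24, whose bacterial counterpart guards the entry of the messenger RNA channel, gave 351, 356, 264, 112 and 282, with an SD of 0.69 and a variance 5.51 times limma's trend (adjusted p = 0.743). Replicate 4 lay far below the other samples, and the gene's other probe set also had its lowest signal there (51.5, 95.02, 50.5, 44.0 and 63.2). Both probe sets are of the _s_at type, which can also bind transcripts of other genes. Mrpl37 gave 104, 54.3, 52.0, 40.9 and 107, so replicates 1 and 5 stood above the rest. Mrpl38 showed the same division of samples, with 49.2, 28.4, 30.6, 23.4 and 52.1. The probe sets that gave these values of Mrpl37 and Mrpl38 are of the _s_at type as well. The other probe set of Mrpl38, not above background, was lowest in replicate 1 and highest in replicate 4 (7.35, 21.3, 23.8, 30.4 and 21.4). Mrps23 gave 46.4, 71.6, 95.8, 115 and 97.4, lowest in replicate 1. Mrpl57 gave 117, 145, 78.4, 72.1 and 142, low in replicates 3 and 4, but its other called probe set was high in these samples, with 64.9, 76.5, 96.3, 92.3 and 38.7. Mrpl14, given above, was highest in replicate 4.

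**Figure D3:**
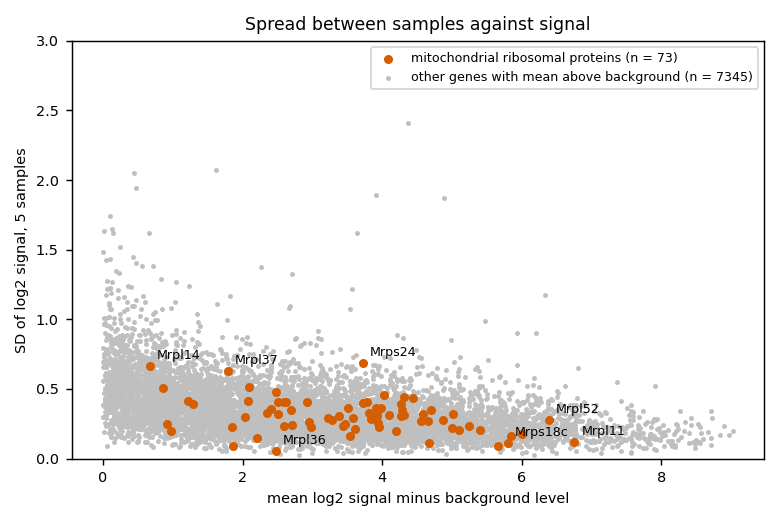
Each point is a gene with a mean above background, members in orange and other genes in grey; the x axis is its mean log2 signal minus the background level and the y axis the SD of its log2 signal over 5 samples. The members lie within the cloud of other genes, from 0.05 (Mrpl36) to 0.69 (Mrps24).

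As a group the members deviated from their own means in the same direction in some samples. Their mean centred log2 signal was -0.10, -0.02, -0.13, 0.04 and 0.22 in replicates 1 to 5, with an SD of 0.14, against 0.02, 0.01, -0.05, -0.03 and 0.04 for all genes above background, with an SD of 0.04. The arrays were scaled to the same mean, which keeps the means over all genes near 0. Their SD is thus no measure for a short list. Other lists, described below, had SDs from 0.08 (cytosolic ribosomal proteins) to 0.26 (mitochondrial tRNA synthetases), with 0.12 for respiratory chain and ATP synthase subunits. Replicate 5 was the highest sample for 33 of 73 members (45.2%), against 23.9% of all genes, and replicates 1 and 3 were the lowest for 27 and 21 members (37.0% and 28.8%), against 20.9% and 24.0% of all genes. In 52 members (71.2%) replicate 5 lay above both replicates 1 and 3, against 37.8% of all genes. With the mean of the probe sets of a gene in place of 1 probe set the members' means were -0.21, 0.02, -0.07, 0.05 and 0.21, so replicate 1 lay lower, replicate 3 nearer to 0 and replicate 2 changed sign. The mean in replicate 5 was 0.22 also after quantile normalization, where 35 members were highest in it, against 22.0% of all genes. The SD of the group mean was 0.08 without replicate 5, against 0.14 to 0.16 with any other sample left out. These are descriptions of 5 arrays, with no test.

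Both subunits were highest on average in replicate 5. The 48 genes of the large subunit gave -0.10, -0.02, -0.14, 0.06 and 0.20 and the 24 of the small subunit -0.11, -0.03, -0.11, 0.02 and 0.24 in replicates 1 to 5. Replicate 4 was the highest sample of 21 members (28.8%) and the lowest of 15 (20.5%), against 21.5% and 23.4% of all genes. Of the 21, 13 were lowest in replicate 1, among them Mrpl22, Mrpl35, Mrps31 and Mrps16. Mrpl22, which lines the exit tunnel, gave 269, 404, 379, 570.4 and 536, and Mrps31, a mitochondria-specific small subunit protein, gave 255, 321, 383, 496 and 458. Of the 15 that were lowest in replicate 4, 10 were highest in replicate 5, among them Mrpl13, Mrpl52, Mrps15 and Mrps21. Mrps21 gave 350.1, 384, 273, 191 and 417. These orders are those of the probe set that stood for each gene, and the other called probe sets of Mrpl13 were highest in replicates 2 and 3. Mrpl22, Mrps31 and Mrps21 are named here after their values were seen.

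Other measures also differed between the same arrays. Replicate 5 had the highest median signal (32.2) and the highest background level (23.4), and the summed signal of 5 erythroid markers was 10774, 11227, 13742, 8396 and 16772 in replicates 1 to 5, that of 4 markers of liver and yolk sac endoderm 411, 302, 547, 120.1 and 944, and that of 5 neuronal markers 3113, 2714, 3959, 2289 and 3553. The 3 globin genes among the erythroid markers were each highest in replicate 5 and lowest in replicate 4. The low liver sum in replicate 4 was that of Ttr, while Apoa2, the other liver marker above background, was lowest in replicate 3. Both were highest in replicate 5, but Ttr was nearly level in replicates 5 and 3 (508.3 and 507.1). Of the erythroid markers Alas2 and Gata1 were not called above background over the 5 arrays, and of the liver markers Afp and Alb were not. In replicate 5 each of them exceeded that array's level of 23.4, Afp by far (197.8, against 2.21 to 20.7 in the other replicates). The summed markers of neural crest with arch mesenchyme and of pharyngeal endoderm were highest in replicate 1 (6088 and 744). The sum of cardiac progenitors was highest in replicate 3 (1892) and that of cardiac muscle in replicate 5 (474). The ratio of the 3′ to the 5′ control probe set of Gapdh was 3.73, 2.78, 3.12, 2.89 and 2.89 and that of beta-actin 4.34, 3.36, 4.58, 4.82 and 4.69. The part of cell composition, RNA quality and amplification in the deviations of the members was not tested.

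Subunits of the respiratory chain and ATP synthase, among them the nuclear partners of the proteins that mitochondrial ribosomes make, were described in the same way. The mean deviation of 70 such genes was -0.03, -0.00, -0.02, -0.14 and 0.19 in replicates 1 to 5, and replicate 5 was the highest sample for 45 (64.3%). In replicate 4, 29 (41.4%) of them had their lowest signal. The shares lowest in that sample were 20.5% of the mitochondrial ribosomal proteins and 23.4% of all genes. The 40 measured proteins of the cytosolic ribosome, which makes the mitochondrial ribosomal proteins themselves, gave 0.02, -0.02, -0.12, -0.00 and 0.12, with 19 (47.5%) highest in replicate 5. Means of shorter lists, counted below, are of genes with a mean above background. In replicate 5 they were 0.17 for 7 translation factors and 0.14 for 13 genes of mtDNA transcription, replication and mRNA stability. They were -0.06 for 9 tRNA synthetases and -0.18 for 18 assembly and rRNA modification factors, with medians of 0.14 and -0.08. The 3 mitochondrial ribosome proteins with other names had 0.16, and all 3 were highest in replicate 4. The differences between these lists were not tested.

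**Figure D4:**
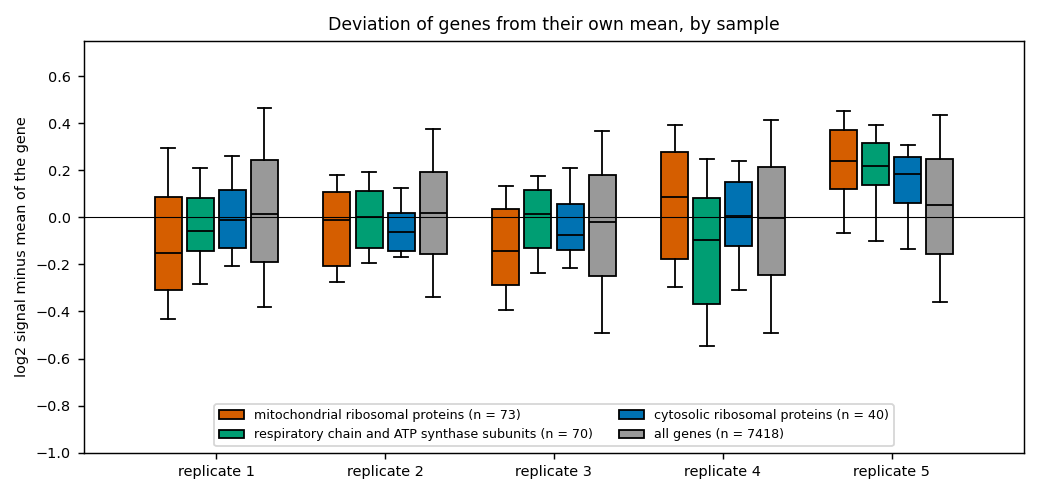
For each sample, boxes show the log2 signal minus the mean of the gene over its measured members (median, quartiles, and whiskers at the 10th and 90th percentiles) for mitochondrial ribosomal proteins (orange), respiratory chain and ATP synthase subunits (green), cytosolic ribosomal proteins (blue) and all genes above background (grey). The orange median is at -0.15 in replicate 1, -0.14 in replicate 3 and 0.24 in replicate 5, and in replicate 4 the orange box lies above the green one.

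Lists of genes that work with the mitochondrial ribosome were counted in the same way. Of all genes 54.1% were above background and 31.1% above the strict level. Proteins of the ribosome that bear other names gave 3 of 4: Ptcd3 (680.4 ± 127), Chchd1 (584 ± 105) and Dap3 (422 ± 62.4) were called, and Gadd45gip1 (20.4 ± 11.3) was not. Translation factors gave 7 of 7, with 3 (42.9%) above the strict level. These were the elongation factor Gfm1 (147 ± 16.01), the initiation factor Mtif2 (136 ± 21.1) and the peptide deformylase Pdf (129 ± 22.7). Mitochondrial tRNA synthetases gave 7 of 10 (70%) and 3 (30%) above the strict level, the latter near the share of all genes. The 3 were Gars (566 ± 65.6) and Kars (373 ± 94.3), which serve the cytosol as well, and the mitochondrial Rars2 (149 ± 11.5). Sars2 (27.5 ± 16.7) and Pars2 (8.28 ± 4.81) were not called.

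Assembly and rRNA modification factors gave 16 of 19 (84.2%) above background and 6 (31.6%) above the strict level, against 54.1% and 31.1% of all genes. Among the 6 were the RNA-binding protein Fastkd2 (529 ± 62.0), the helicase Dhx30 (307 ± 84.9) and the GTPase Noa1 (262 ± 72.2). The methyltransferase Mrm2 (25.01 ± 10.6) and the protease subunit Spg7 (17.6 ± 7.22) were not called. Genes of mtDNA transcription, replication and mRNA stability gave 10 of 13 (76.9%) and 7 (53.8%) above the strict level. Among the 7 were Slirp (1644 ± 392), which stabilises mitochondrial messenger RNA, the DNA-binding protein Ssbp1 (836 ± 73.2) and the exoribonuclease Pnpt1 (369 ± 70.0). The mitochondrial RNA polymerase Polrmt (24.4 ± 8.09) and the exonuclease Mgme1 (24.1 ± 7.73) were not called. Respiratory chain and ATP synthase subunits gave 70 of 70 and 69 above the strict level, among them Cox7a2 (7259.9 ± 1064) and Cox5b (4707 ± 989) of complex IV and Atp5a1 (4354 ± 421) of ATP synthase. Cytosolic ribosomal proteins gave 38 of 40 and 36, among them Rpl41 (10088 ± 1389.9), Rpl35 (9655 ± 1217) and Rpl7a (7911 ± 1048), while Rpl39 (41.2 ± 22.6) and Rpl37 (20.7 ± 6.05) were not called. The shares are descriptions and were not set against each other by a test.

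**Figure D5:**
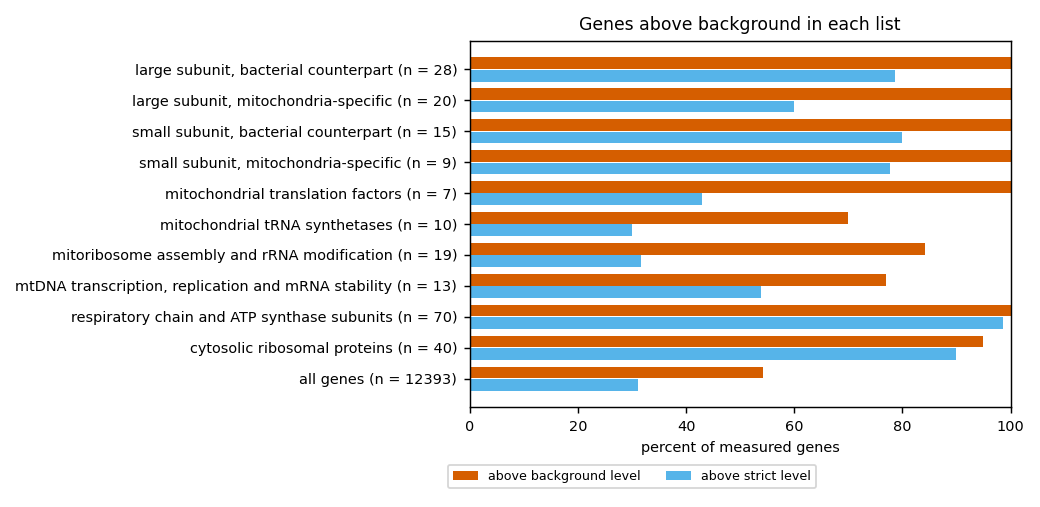
Bars give the percent of measured genes in each list that were above the background level (orange) and above the strict level (blue), with the number measured in brackets. The 4 classes of mitochondrial ribosomal proteins stand at 100% above the background level and at 60% to 80% above the strict level, and all genes at 54.1% and 31.1%.

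The genes are scattered over 17 chromosomes of the RefSeq annotation (GRCm38.p6), with most on chromosomes 11 (11 genes), 17 (7 genes), 6 and 7 (6 genes each). RefSeq promoter windows, 250 bases before to 50 bases after a start site, were found for 64 of the 73 genes, 70 windows in all. Nuclear genes for mitochondrial proteins are known to be regulated by NRF1, by ETS factors such as the GA-binding protein and by YY1, so the windows were searched on both strands for 4 fixed strings. The ETS string CCGGAAG was in 24 of 70 windows (34.3%), against 19.4% of 7038 windows of other genes above background and 8.86% of all 32851 windows. The NRF1 string, GCGCA followed by any base and then GCGC, was in 12 (17.1%), against 11.6% and 4.6%. The YY1 string ATGGCGG was in 11 (15.7%), against 8.85% and 4.05%, and in 10 of 11 genes it lay after the start site. The E-box CACGTG, which Myc proteins bind, was in 7 (10%), against 10.1% and 7.15%. These 7 windows belong to 5 genes, since several are windows of Mrpl2. In 26 windows none of the 4 was found. The windows had a median GC content of 58.3%, against 61.3% for other genes above background and 52.7% for all windows. A match is a string of letters and does not show that a factor binds there.

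The bases before the start sites of 6 members show these strings in capitals, 4 genes for the ETS string and 2 for the NRF1 string. Mrpl3, Mrps22, Mrps18a, Mrpl12 and Mrpl44 are shown because their signals are described above, and Mrpl43 because it holds the ETS string at 2 places. Each is the RefSeq sequence (GRCm38.p6) of the 100 bases before the start site, 5′ to 3′ on the strand of the gene, and the last base stands next to the start site.
Mrpl3, chr9:105053168-105053267 (+): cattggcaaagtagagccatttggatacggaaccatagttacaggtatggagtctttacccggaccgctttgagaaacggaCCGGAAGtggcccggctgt
Mrps22, chr9:98601680-98601779 (-): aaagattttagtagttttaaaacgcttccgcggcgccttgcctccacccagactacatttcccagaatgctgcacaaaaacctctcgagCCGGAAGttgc
Mrps18a, chr17:46110904-46111003 (+): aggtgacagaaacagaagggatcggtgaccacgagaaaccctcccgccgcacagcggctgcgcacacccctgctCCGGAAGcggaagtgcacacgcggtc
Mrpl43, chr19:45006443-45006542 (-): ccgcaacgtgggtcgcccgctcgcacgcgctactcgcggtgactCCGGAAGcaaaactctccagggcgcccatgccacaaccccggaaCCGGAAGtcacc
Mrpl12, chr11:120484537-120484636 (+): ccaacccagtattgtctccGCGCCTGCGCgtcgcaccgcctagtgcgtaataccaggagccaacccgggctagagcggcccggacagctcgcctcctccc
Mrpl44, chr1:79775918-79776017 (+): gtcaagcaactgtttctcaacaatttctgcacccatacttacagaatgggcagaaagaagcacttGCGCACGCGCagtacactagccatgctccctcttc
In Mrpl3, Mrps22 and Mrps18a the ETS string begins 19, 11 and 26 bases before the start site, and in Mrpl43 56 and 12 bases before it. In Mrpl12 and Mrpl44 the NRF1 string begins 81 and 35 bases before it, in Mrpl12 on the opposite strand.

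Many members start beside a gene on the other strand. Of 64 members with a window, 23 (35.9%) had a start site of another gene within 1000 bases upstream in head-to-head orientation, against 22.1% of 5435 other genes above background and 12.2% of all 27025 genes with a window. In 1 pair both genes were members. Mrps11 and Mrpl46 on chromosome 7 start 42 bases apart and are separated by this stretch, in which neither the ETS nor the NRF1 string was found.
Mrps11, chr7:78783090-78783130 (+): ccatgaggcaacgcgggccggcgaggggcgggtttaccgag
Mrps11, a small subunit protein with a bacterial counterpart, gave 109, 96.2, 51.3, 79.4 and 83.2, and Mrpl46, a mitochondria-specific large subunit protein, gave 231, 242, 187, 336 and 372. Mrps11 was highest in replicate 1 and Mrpl46 in replicate 5, and both were lowest in replicate 3.

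Of 14 measured head-to-head partners that are not members, 7 (50%) were above background and 6 above the strict level, near the 54.1% above background among all genes. Sars2, the mitochondrial seryl-tRNA synthetase, starts 147 bases from Mrps12 and gave 5.51, 29.1, 28.7, 52.1 and 22.3, which was not called (adjusted p = 0.465, limma), while Mrps12 was. Ndufb5, a subunit of respiratory complex I, starts 308 bases from Mrpl47 and gave 697, 762, 720.2, 511 and 652. Fau, which encodes a protein of the cytosolic ribosome, starts 192 bases from Mrpl49 and gave 3999, 3759, 4219.7, 4433 and 4790.4. Psma2, a proteasome subunit, starts 205 bases from Mrpl32 and gave 953, 1144, 1265, 1377 and 1245. Helq, a DNA helicase that starts 159 bases from Mrps18c, gave 11.2, 10.4, 32.6, 28.2 and 17.4 and was not called. These partners were chosen after their values were seen. The spans of 19 members overlap another protein-coding gene in the annotation, and whether a probe lies in an overlap was not examined.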

How the data were processed

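The authors deposited 1 scaled signal per probe set and array, an intensity linear in scale. GCOS is named in the submitters' processing notes; its version and settings are not given in the sources used here. These deposited intensity values had the same mean on every array (150.1) after the lowest and highest 2% of probe sets were left out. Of 22690 probe sets 64 controls were left out, 20380 had 1 annotated gene, 691 several and 1555 none; symbols were updated by Entrez identifier (20351 matched) with RefSeq. Values below 1 were set to 1 before log2, and the probe set of highest mean log2 stood for its gene. Detection and variability were tested with limma 3.58.1 in R 4.3.3 (lmFit and eBayes, trend and robust) over all genes, with Benjamini-Hochberg adjusted p below 0.05, detection one-sided. Both tests were checked on simulated data. The error of the level itself is not in the p-values.

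The number of arrays limits the precision; no detection calls or probe intensities were used. The members and gene lists were chosen with earlier results of these data known. Genes named with values were the 10 members with the highest signal, the 6 with the largest SD, those whose probe sets differ most, members without a call (there were none), the S18 paralogs, 9 examples of roles, and up to 3 called and 2 uncalled genes of each other list; others are named for their role or to complete a count after their values were seen. The background pattern leaves out casein kinases and interferon receptors, which the strict level includes. Protein sequences were planned and not used here.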

Additional observations from a re-analysis of the deposited data

Results flagged for a closer look

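Of 42 values tested for a sample far from the other 4, 1 stood out, and chance marks about 1 in 20. Mrps24 had a signal of 112 in replicate 4, against 264 to 356 in the other samples. The gap to the next sample was 0.74 of the whole range in log2 units, and the second probe set of the gene was lowest in replicate 4 as well (44.0). Mrps24 was above background with and without replicate 4.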

How the results depend on the processing

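The number of members above background was 73 with quantile normalization (54.1% of all genes) and with an offset of 16 in place of the floor (54.3%). Without limma's trend and robust options it was 73 (53.6%). Bright probe sets alone also gave 73, but that filter keeps probe sets whose highest signal exceeds the level of every array. A call is thus likely there for any gene, and 79.0% of all genes were called. The number was 67 of 73 with the 99th percentile as the level (44.6% of all genes) and 70 with the mean of probe sets (48.0%). It was 52 of 58 with plain probe sets alone (50.4%), 54 at the strict level (31.1%) and 72 to 73 with 1 replicate left out (52.9% to 54.7%). Called probe sets of members numbered 72 of 126 at the strict level (27.2% of all single-gene probe sets), against 108 in the main setting (51.1%). They numbered 98 with the 99th percentile and 107 to 109 with 1 replicate left out, where no share over all probe sets was taken. No member passed the variability test under any of these settings where it was run, and none with 1 replicate left out; 0 to 3 members had an unadjusted p below 0.05. The SD of the mean member deviation was 0.13 to 0.15 under the other settings and 0.08 to 0.16 with 1 replicate left out, the lowest without replicate 5. From 31 to 36 of 73 members were highest in replicate 5, against 22.0% to 29.1% of all genes. This covers all probe set choices and scalings that kept 73 members, and replicate 1, 2 or 3 left out. Without replicate 4 it was 48 (65.8%), against 32.4% of all genes. At the strict level 28 of 61 were highest in replicate 5, against 21.3%, and with plain probe sets 24 of 53, against 22.3%. These counts were added once the data had been seen.

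Single members near background fell below a higher level. At the strict level the excess was -1.48 for Mrpl14, -1.29 for Mrpl38, -1.24 for Mrps34, -0.94 for Mrpl10, -0.36 for Mrpl37 and -0.066 for Mrps23 log2 units. With the 99th percentile it was -0.24 for Mrpl14 and -0.048 for Mrpl38. With plain probe sets alone it was -2.05 for Mrpl35, -1.29 for Mrpl17 and -0.020 for Mrpl38, since another probe set then represents the gene. No paired analysis was possible because all samples belong to 1 group.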
